A study of Arabidopsis thaliana with 4 samples.

Results

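Transcript abundance in rosette leaves of Arabidopsis thaliana plants left for 28 h without phosphate was compared with that in plants kept on the full nutrient solution, with 1 Affymetrix array for each. These are 2 of the 4 arrays of a series on major nutrients, whose other arrays came from plants without nitrate or without potassium. The plants were of ecotype Col-5, carried no transgene or mutation according to the labels, and were sampled at the same growth stage. Agar medium with sucrose carried them to day 21, after which they stood in liquid culture under continuous illumination, at 24 °C and 80% humidity. The full solution held 0.25 mM KH2PO4 and 0.5 mM KOH with magnesium, calcium and trace salts. The phosphate-free solution held no KH2PO4 and 0.125 mM additional K2SO4, which carries as much potassium as the salt it replaced, so sulphate rose as phosphate was removed. The nitrate-free solution held 4 mM additional CaSO4. The potassium-free solution held no KH2PO4 and no KOH, with 0.27 mM additional Ca(H2PO4)2. These arrays therefore also differ from the full solution in salts other than the nutrient removed. The labels of the phosphate array disagree in part. Its treatment text names phosphate as the salt left out and the letters of its source name hold N and K but no P, whereas the letters of its title hold N and P but no K. It was taken as the phosphate array from the treatment text and the source name. The labels do not say how many plants each RNA came from.

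Phosphate is taken up as inorganic phosphate and is built into nucleic acids, phospholipids and sugar phosphates. When it runs short, Arabidopsis raises phosphate transporters, secreted phosphatases and ribonucleases through the transcription factor PHR1, and replaces phospholipids with sulfolipids and galactolipids. Ribosomes hold a large part of the phosphate of a leaf cell in their RNA.

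All 8247 probe sets other than Affymetrix controls were described by the log2 ratio of the phosphate to the full-nutrient array, after signals under 25 had been set to 25. Signals are in arbitrary units on a common scale, and where 4 are listed for a gene they stand in the order full solution, without nitrate, without phosphate, without potassium. With 1 array per condition no value has a replicate error, no difference was tested, and every ratio describes these arrays only. Where either signal lay under 25, the ratio only bounds the difference and is given as "at least". In whole leaves, fewer cells of a type and less RNA per cell cannot be told apart.

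Both arrays were alike in signal range, with 47.5% of full-nutrient and 48.7% of phosphate signals above the floor. Their Affymetrix controls differed. The 9 probe sets of the bacterial spikes added at hybridisation were between 1.28-fold and 3.42-fold lower on the phosphate array, with a median of 2.01-fold, against medians of 1.34-fold lower on the nitrate and 1.25-fold lower on the potassium array. The GAPDH control for the 3′ end, a glycolytic gene, read 2064, 401.6, 475.4 and 2384 (full solution, without nitrate, without phosphate, without potassium). Its ratio of 3′ to 5′ signal was 2.36 with the full solution and 1.26 without phosphate, while that of the ubiquitin control was 3.16 and 2.75. Signals were not rescaled to the spikes, and the part of these differences in the ratios below was not tested. The leaf markers measured were bright on both arrays, with 7162 and 5936 for LHCB4.1, 5766 and 4482 for RCA and 3031 and 2420 for PSAN. The root marker BGLU21 (1.7 and 5.3) and the flower marker AT5G07230 (17.4 and 4.8) were below the floor on both, and no seed marker was named by the probe annotation.

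Most leaf transcripts stayed close to the full-nutrient level, and those that stood apart were more often higher than lower. Of the 3717 probe sets above the floor on both arrays, 83.8% lay within 1.5-fold, and the middle 50% of log2 ratios ran from -0.28 to 0.24. A 2-fold difference was met by 153 probe sets higher on the phosphate array, 1.86% of the 8247, and 59 were lower, 0.715%. A 4-fold difference was reached by 16 higher and 3 lower probe sets. At 1.5-fold the numbers were 420 higher (5.09%) and 282 lower (3.42%), so higher probe sets outnumbered lower ones at both limits. Of the higher probe sets, 107 had a full-nutrient signal under 100, and 30 of these did not exceed 25 there. A floor of 10 in place of 25 gave 261 higher and 103 lower probe sets, and with the mean of the other 3 arrays as the reference there were 75 and 37.

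**Figure D1:**
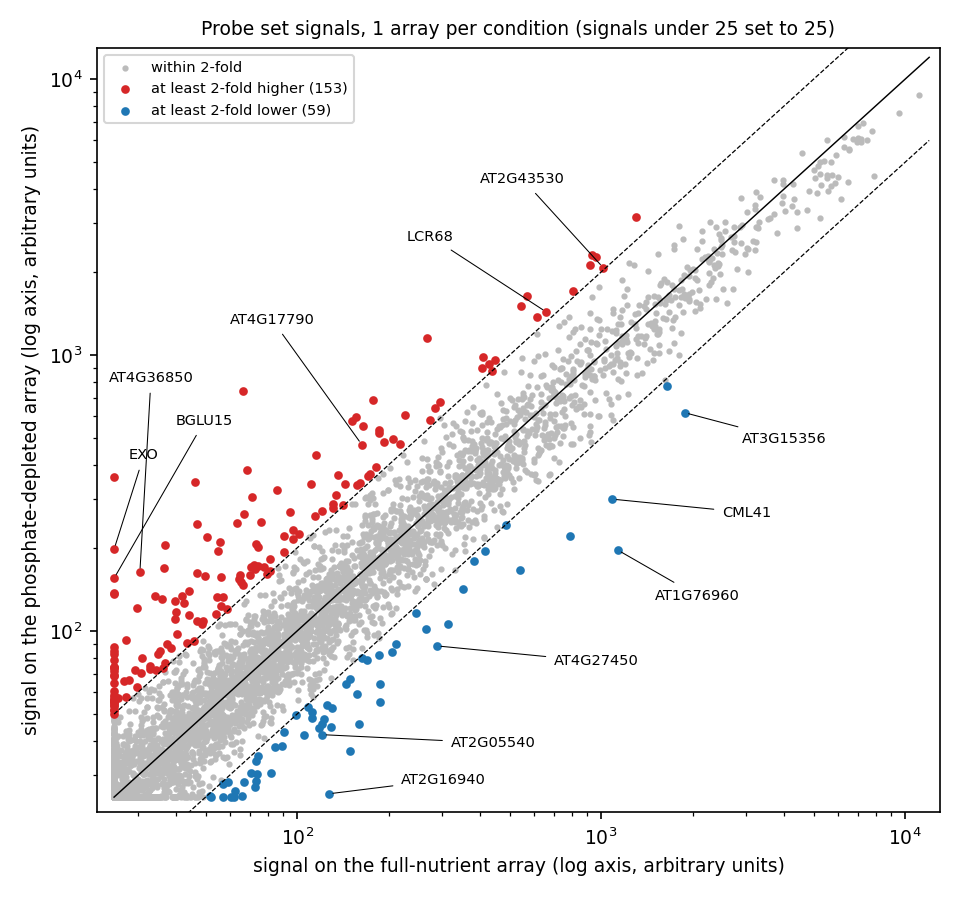
Signal of each of the 8247 probe sets on the full-nutrient (x) and phosphate-depleted (y) array, both on log axes in arbitrary units with signals under 25 set to 25. The solid line marks equal signals and the dashed lines 2-fold; the 153 red points lie above and the 59 blue points below, and many red points sit at low full-nutrient signal.

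The excess of higher over lower probe sets was present at nearly every signal level. Among probe sets with a geometric mean signal between 25 and 50, 11 were higher and 11 lower. Between 100 and 200 the counts were 34 and 11 of 714, between 200 and 400 they were 23 and 5 of 529, and above 1000 they were 6 and 2 of 281. The median log2 ratio drifted from 0.01 between 50 and 100 to -0.11 above 1000, so the brightest transcripts lay slightly lower as a whole.

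**Figure D2:**
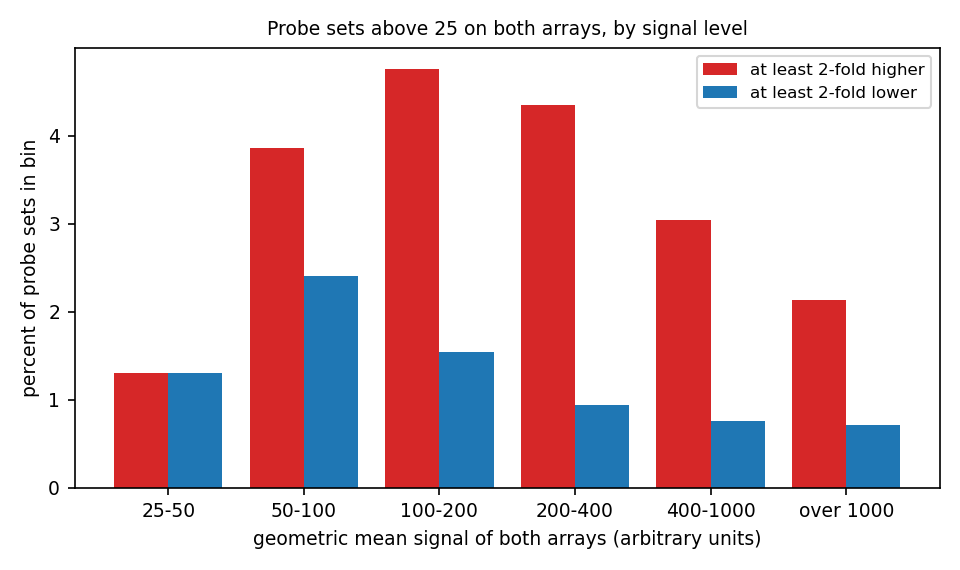
Percent of probe sets at least 2-fold higher (red) or lower (blue) on the phosphate array, for those above the floor of 25 on both arrays, in bins of their geometric mean signal (arbitrary units). The share of higher probe sets was 4.76% between signals of 100 and 200 and 2.14% above 1000, and that of lower ones fell from 2.40% between 50 and 100 to 0.712% above 1000.

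The probe annotation named 1 gene for 48 of the 153 higher probe sets (46 genes) and for 25 of the 59 lower ones, and it held few genes of chromosomes 3 and 5 (188 and 157 probe sets, against 837, 1401 and 1201 for chromosomes 1, 2 and 4). It therefore reached little of the phosphate response itself. Of 39 genes of phosphate uptake, signalling and starvation, LPR1, a ferroxidase gene of root growth under low phosphate, was the single one named, and its signals of 0.5 and 4.2 lay below the floor. None of 12 genes of membrane lipid remodelling was named. The genes below are those that could be read.

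Among genes of growth and the cell wall, EXO had the highest bound, which depends on the floor as do those of BGLU15 and ChiC. With a floor of 10 the log2 ratio was 3.36 for EXO and 3.43 for BGLU15. These 2 are no longer bounds, since the full-nutrient signals of 19.3 and 14.4 exceed 10, whereas ChiC (3.6) stays a bound. EXO, which encodes an extracellular protein that promotes growth in response to brassinosteroid, had signals of 19.3, 40.8, 197.8 and 205.6. It was at least 7.91-fold higher on the phosphate than on the full-nutrient array, and the phosphate and potassium arrays were nearly equal. GH3.3, whose enzyme links auxin to amino acids and so lowers free auxin, had signals of 39.7, 36.6, 128.4 and 120.2 in the same order and was 3.23-fold higher. Its pattern over the arrays was that of EXO, low on the full-nutrient and nitrate arrays and high on the others. TBL37, of the family that acetylates cell wall polysaccharides, was 2.99-fold higher (42.4, 47.0, 126.7 and 139.1). IAA18, a repressor of auxin-responsive genes, was 2.02-fold higher but was also raised on the nitrate array (66.7 against 73.3), so it sets the phosphate array apart from the full-nutrient array alone. ATPMEPCRB (PME41), a pectin methylesterase gene, was at least 2.08-fold higher on 1 probe set, and its other probe set had a log2 ratio of at least 0.60. STOMAGEN, which encodes a secreted peptide that increases the number of stomata, was 2.45-fold higher, from a signal of 27 just above the floor to 66.1, with 53.7 on the nitrate array. EXPA8, an expansin gene of cell wall loosening, was bright and lay near its full-nutrient level (1225 and 1017), while the nitrate and potassium arrays were at 2172 and 509.9.

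Several higher transcripts belonged to the metabolism of specialised compounds and of jasmonate. BGLU15, which encodes a beta-glucosidase that removes glucose from flavonol glycosides, had signals of 14.4, 5.2, 155.2 and 40.5. It was at least 6.21-fold higher than on the full-nutrient array and stood above each other array. AT2G34810, a berberine bridge enzyme-like gene known to respond to jasmonate, was 4.34-fold higher (50.5, 36.6, 219.0 and 275.8). AT2G38240, which encodes an oxygenase that inactivates jasmonate by hydroxylation, lay far below the floor on the full-nutrient and nitrate arrays (1.5 and 8.8) and at 53.8 and 96.1 on the phosphate and potassium arrays, at least 2.15-fold higher. AT2G34810 was the single measured gene of 17 listed for jasmonate, since the other one named, THI2.1, was below the floor on both arrays with its 3 probe sets. AT1G09500, an alcohol dehydrogenase-like gene, had 2 probe sets, at 29.7 and 121.6 and at 16.9 and 78.8, 4.09-fold and at least 3.15-fold higher. Both were higher still on the potassium array (610.9 and 235.5). AT2G41380, a methyltransferase family gene, was 2.12-fold higher.

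Transcripts of several secreted defence proteins were higher as well. ChiC, a class V chitinase gene, had signals of 3.6, 15.0, 87.8 and 245.7 and was at least 3.51-fold higher. OSM34, an osmotin-like gene, was 3.18-fold higher (44.0, 84.4, 139.9 and 1018). The phosphate array is intermediate for both genes, and the potassium array holds their highest signal. LCR68 (PDF2.3), a plant defensin gene, differed from these in that its highest signal was on the phosphate array, with 660.3, 578.5, 1433 and 535.8, 2.17-fold above the full-nutrient array. AT2G43530, a defensin-like gene, was 2.04-fold higher at a bright signal (1016 and 2074). How uniform the group looks depends on how it was searched for. The search terms for chitinases, glucanases, osmotins and defensins as first written found 15 measured genes, of which 2 were 2-fold higher, 11 lay above 0 and 4 below, with a median log2 ratio of 0.28. After the values had been seen, matches to methionine genes were taken out and the cysteine-rich family of LCR68 was added. This left 8 measured genes, 3 of them 2-fold higher and all 8 above 0, with a median of 0.81. Another 10 of the 18 named members did not exceed the floor on either array and have no direction. ChiC was measured through its phosphate signal alone, so it could only lie above 0. Over all 1655 measured genes, 2.6% were 2-fold higher and 1.45% lower. The 8 include the cell wall genes XTH32, EXGT-A3 and XEG113, matched by words in their names, and the median of the 8 was 0.33 against the mean of the other 3 arrays.

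Class III peroxidases, secreted enzymes that cross-link or loosen cell walls, were found on both sides. AT5G64120 (PRX71) had signals of 136.1, 81.5, 367.9 and 387.5 and was 2.70-fold higher. AT2G38380 had 2 probe sets, with 9.4 and 82.3 and with 1.9 and 29.8 on the full-nutrient and phosphate arrays, so the higher ratio was at least 3.29-fold and the other, near the floor, at least 1.19-fold. The first of these was equally raised on the nitrate array (84.1). AT4G11290 was 2.31-fold lower (70.6 and 30.6) and AT2G37130, a brighter member, 2.02-fold lower (487.0 and 241.5). AT4G11290 was also low on the nitrate and potassium arrays (19.9 and 21.5), whereas AT2G37130 was not (629.0 and 408.0). Over the 17 measured members of 45 named, the median log2 ratio was 0.31, with 14 above 0 and 3 below. Of all 1655 measured genes, 50.3% lay below 0. However, 9 of the 17 had a full-nutrient signal under 25 and were measured through the phosphate array alone. Those 9 could only lie above 0, so the count of 14 is not read as a direction of the family. The median was 0.00 with a floor of 50.

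**Figure D3:**
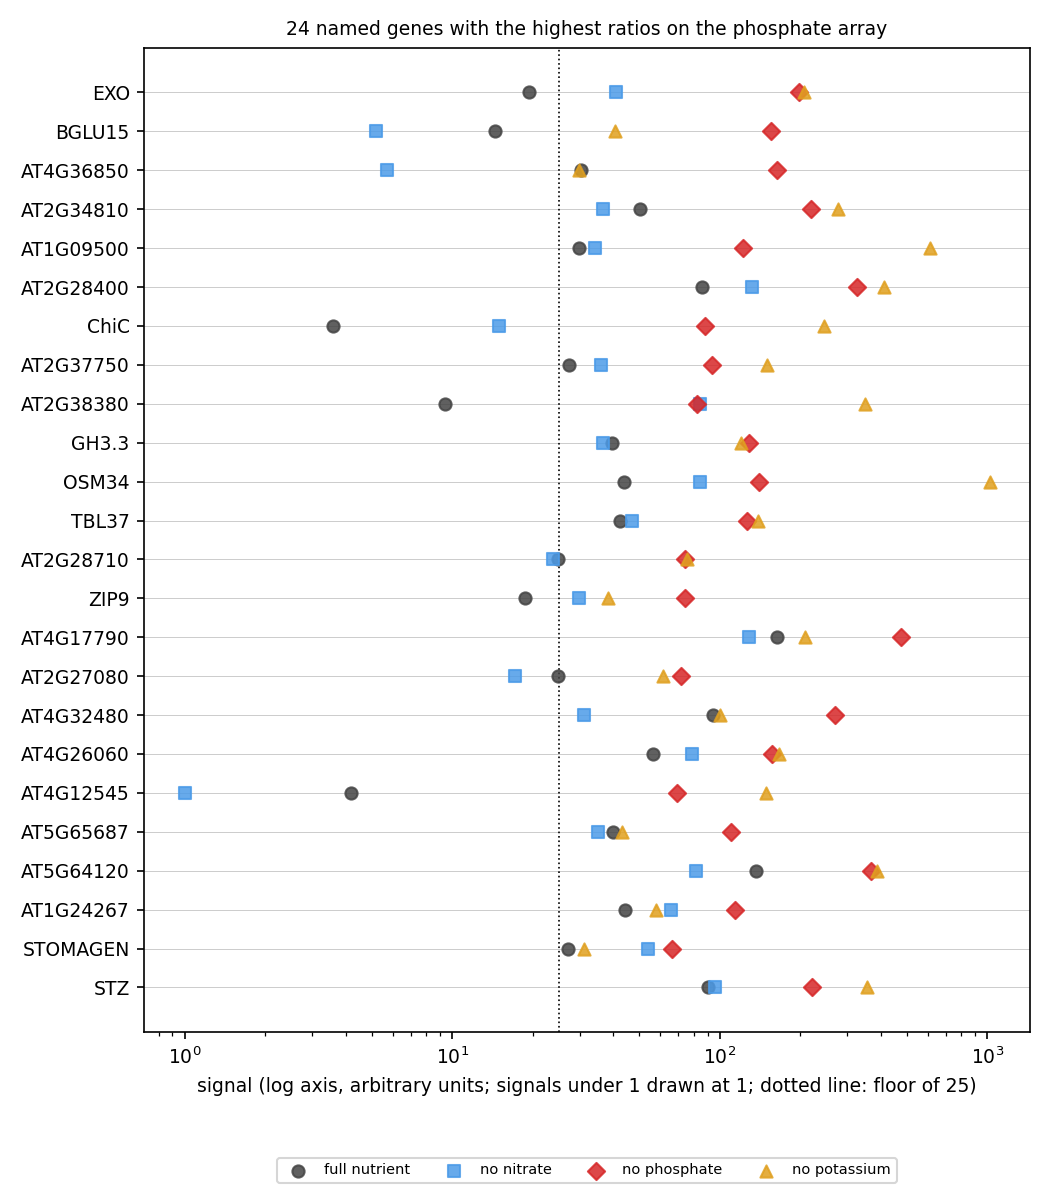
Signals on the 4 arrays (log axis, arbitrary units) of the 24 named genes with the highest ratios of the phosphate to the full-nutrient array, 1 probe set per gene, with the floor of 25 dotted. BGLU15, AT4G36850, AT4G17790, AT4G32480 and AT5G65687 have the phosphate array (red diamonds) alone at the upper end, while for EXO, AT2G34810, ChiC and OSM34 the potassium array (yellow triangles) is as high or higher.

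Regulators and signalling proteins formed a smaller group. STZ (ZAT10), which encodes a zinc finger repressor that responds to many stresses, had 2 probe sets, with 90.5 and 220.7 and with 171.1 and 365.4 on the full-nutrient and phosphate arrays. Both were higher, 2.44-fold and 2.14-fold, and both were highest on the potassium array (355.7 and 448.2). AT2G28710, another C2H2 zinc finger gene, was at least 2.97-fold higher, with 74.2 on the phosphate and 75.6 on the potassium array and signals under 25 elsewhere. AT4G02940 (ALKBH10B), which encodes an enzyme that removes methyl groups from adenosine in messenger RNA, was 2.41-fold higher (40.4 and 97.4). Of 13 measured genes with transcription factor names, STZ was the single one at 2-fold and the median was -0.08. Over all 1655 measured genes 2.6% were 2-fold higher and 1.45% lower, so 1 of 13 is not read as a result about the group. The search terms as first written found 29 such genes, 3 of them at 2-fold, with a median of 0.01, before matches to clone names were taken out with the values in view.

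Of the 153 higher probe sets, 19 were at least 2-fold above each of the other 3 arrays, and 10 of them were named. AT4G36850, of the PQ-loop membrane protein family, had signals of 30.4, 5.7, 163.5 and 29.8 and was 5.38-fold higher than on the full-nutrient array. AT4G17790, a gene of a SNARE-associated Golgi membrane protein, was 2.90-fold higher (163.2, 128.4, 473.9 and 207.9), and AT5G65687, of the major facilitator family of transporters, 2.77-fold (39.8, 35.0, 110.3 and 43.0). AT4G32480 and AT2G20670 encode proteins of the DUF506 family, whose function is not well known. AT4G32480 was 2.85-fold higher (94.5, 31.0, 268.9 and 100.4) and AT2G20670 2.02-fold (141.5, 99.8, 286.3 and 59.1). Another measured member, AT4G14620, had a ratio of 0.24, and 3 further named members were below the floor. AT1G03020 and AT2G30540 encode glutaredoxins of the plant-specific CC type, some of which are known to respond to nitrogen supply. AT1G03020 was 2.40-fold higher (37.3, 23.1, 89.5 and 17.6) and AT2G30540 2.02-fold (79.7, 47.8, 161.2 and 77.9), and these were the 2 named members of 13. Both families were listed after their values had been seen. Over all 1655 measured genes 2.6% were 2-fold higher, and counts in families this small are not read as results about them. Over the alternative settings the log2 ratio fell to 0.94 for AT2G20670, 0.89 for AT2G30540 and 0.84 for AT1G03020, under 2-fold. AT4G32480 kept its 2-fold call. AT1G78860, a mannose-binding lectin gene, was at least 2.42-fold higher from below the floor (21.4 and 60.6) and was below the floor on the nitrate and potassium arrays.

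Genes of transport, energy and cold protection followed. ZIP9, a zinc transporter family gene, had signals of 18.7, 29.9, 74.1 and 38.1 and was at least 2.96-fold higher. AT2G40460, a peptide and nitrate transporter family gene, was 2.21-fold higher. CYTC-2, which encodes cytochrome c of the respiratory chain, was 2.38-fold higher (35.5 and 84.4), and AT5G21105, an ascorbate oxidase gene, 2.31-fold. COR15B, which encodes a chloroplast protein that protects membranes in the cold, was 2.27-fold higher (284.5 and 644.6) but reached 742.3 on the nitrate array and 192.1 on the potassium array. KIN2, another cold-induced gene, had a ratio of 0.54 and 0.50 on its 2 probe sets and COR47, a dehydrin gene, -0.38 and -0.53, so the cold genes did not move together. The 4 measured genes of the cold, drought and abscisic acid list include LTI30, which lay near the floor (17.3 and 28.8). Their median was 0.36, which was -0.03 against the mean of the other arrays.

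The remaining higher genes of the naming rule are less well characterised. AT2G28400, of a family linked to senescence, had signals of 86.1, 132.4, 324.8 and 410.6 and was 3.77-fold higher. AT2G37750 was 3.40-fold higher, AT4G26060 2.78-fold, AT1G24267 2.59-fold, AT2G27080 at least 2.88-fold and AT4G12545, of a lipid-transfer protein family, at least 2.78-fold. AT1G10410 had 3 probe sets, all above the full-nutrient array, with log2 ratios of 1.19, 0.86 and 0.64. Outside the rule, and named after their values were seen, are LCR68, AT2G43530, AT2G30540, AT2G38240, AT2G41380, AT2G40460 and AT1G10410, and also AT4G01870 (428.0 and 925.5), AT1G03220, an aspartyl protease family gene (161.3 and 345.3), AT2G32210 (81.2 and 181.7) and AT4G36640 (25.8 and 57.1). AT1G22900 and AT4G27720, at 56.1 and 56.0 on the phosphate array and under 25 on the full-nutrient array, are named in the same way. For AT1G03220, OSM34 and AT2G38380 the potassium array was so high that their ratio to the mean of the other 3 arrays was below 0 (-0.02, -0.16 and -0.13).

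Lower transcripts were led by a gene of unknown function and by genes of RNA and calcium proteins. AT1G76960 had signals of 1133, 970.0, 196.6 and 377.2 and was 5.77-fold lower on the phosphate array. AT2G16940, of a splicing factor family, had 127.1, 36.2, 25.7 and 39.3 and was 4.95-fold lower, and CML41, a calmodulin-like gene, had 1090, 210.3, 300.5 and 315.7 and was 3.63-fold lower. For AT2G16940 and CML41 the full-nutrient array is the one that stands apart, while for AT1G76960 the nitrate array was close to the full-nutrient one. AT3G15356, of the legume lectin family, was 3.04-fold lower (1882, 1156, 618.5 and 630.7).

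Other lower genes had their lowest signal on the phosphate array and were nearer the full-nutrient level elsewhere. AT4G27450, whose protein resembles aluminium-induced proteins, had signals of 288.5, 226.9, 88.3 and 214.8 and was 3.27-fold lower. AT2G05540, a glycine-rich protein gene, had 120.9, 183.3, 42.1 and 156.9 and was 2.87-fold lower. AT3G04550, which encodes a Rubisco accumulation factor, had 313.0, 333.8, 106.2 and 200 and was 2.95-fold lower. AT4G27450 and AT2G05540 belong to a list of 10 genes known to rise when sugar is short, of which 4 were measured. AT3G15450, of the same list, had 223.9, 310.6, 144.0 and 335.6, a ratio of -0.64, while AT2G20670, described above, was 2.02-fold higher. So 3 of the 4 lay below the full-nutrient array and the median was -1.08. Of all 1655 measured genes, 50.3% lay below 0, 2.6% were 2-fold higher and 1.45% were 2-fold lower. With 4 genes, 1 of them 2-fold the other way, this is not read as a result about the list. The list was assembled with these values known, so the direction is a description.

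Genes of cell division, translation and energy were also among the lower ones. PRL (MCM7), which encodes a subunit of the helicase that starts DNA replication, was 2.43-fold lower (74.0 and 30.4), and AT1G10690, of a family of inhibitors of the cell cycle, 2.56-fold lower (122.2 and 47.8). AT4G39280, a gene of phenylalanine-tRNA ligase, was 2.66-fold lower (72.6 and 27.3). AT2G33220, which encodes a subunit of mitochondrial complex I, was 2.13-fold lower (246.7 and 116.0). These 4 genes are dim to moderate, and AT4G39280 and PRL ended close to the floor. CCS, which encodes the copper chaperone of superoxide dismutase, had signals of 381.8, 141.6, 179.8 and 166.1 and was 2.12-fold lower, with the full-nutrient array apart from all others. AT2G44290, of a lipid-transfer protein family, was 2.49-fold lower (352.6 and 141.6), AT2G32880 2.57-fold and AT3G52070 2.46-fold.

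Proline iminopeptidase (PIP), which releases proline from peptides, was 2.22-fold lower (84.5 and 38.1) and AT4G32340 2.13-fold lower (416.0 and 195.2). AT2G24290 was 2.27-fold lower, and AT4G16540 at least 2.28-fold lower (56.9 and 17.8). AT2G24280, a peptidase family gene, had 4 probe sets that disagreed, with log2 ratios of -1.10, -0.33, -0.30 and -0.26, so its 2-fold value rests on 1 of them. Lower by little more than 2-fold were ATSIK, a protein kinase gene (57.1 and 27.9), DI21, a drought-induced gene (108.7 and 53.2), and AT2G39400 (59.2 and 28.3), which like AT2G37130 were named after their values were seen.

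**Figure D4:**
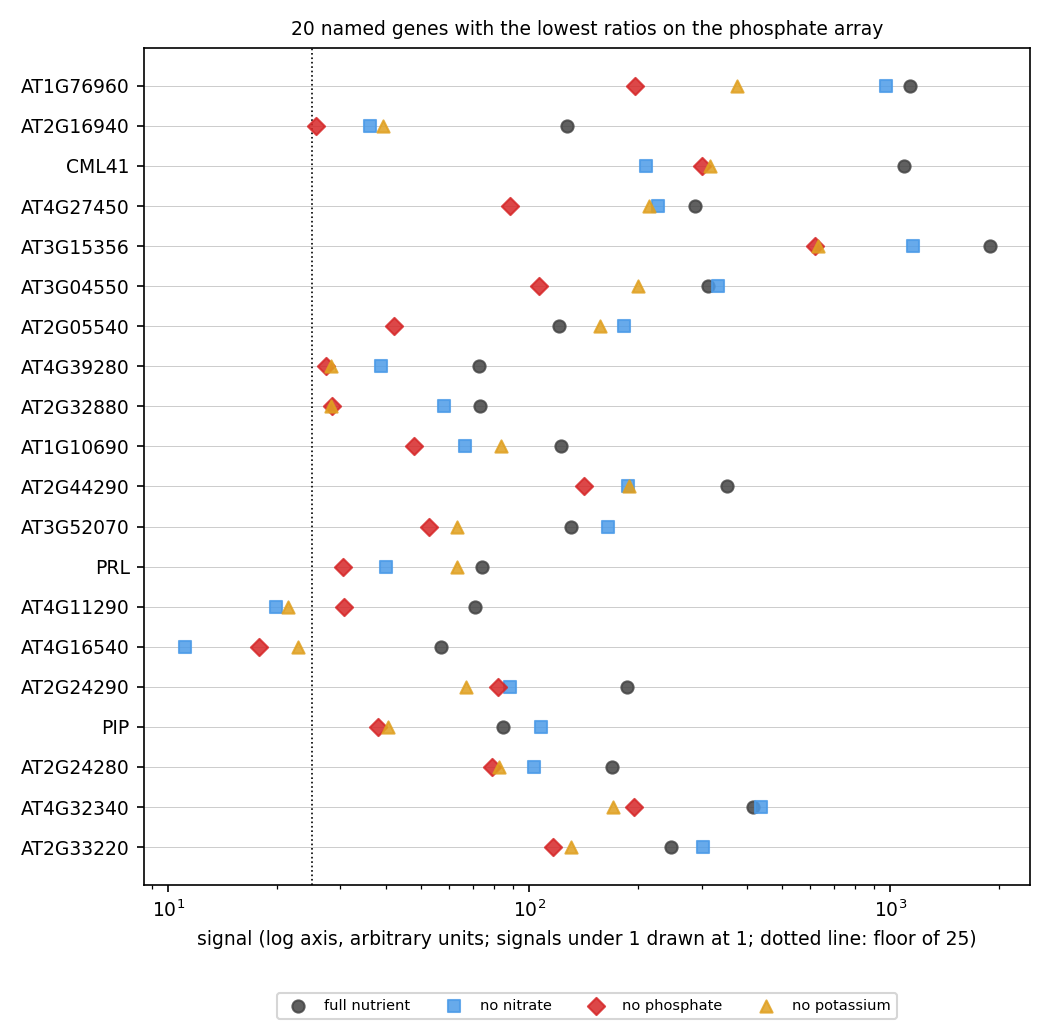
Signals on the 4 arrays (log axis, arbitrary units) of the 20 named genes with the lowest ratios of the phosphate to the full-nutrient array, with the floor of 25 dotted. The phosphate array (red diamonds) is lowest for AT1G76960, AT4G27450, AT3G04550 and AT2G05540, whereas for CML41 and AT2G24290 the full-nutrient array (dark circles) stands above the 3 others.

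Genes of cytosolic ribosomal proteins, which make up the protein part of the translation machinery, were mostly lower, by less than 2-fold. Of 66 such genes listed, 36 were named and 34 were above the floor. Of these 34, 31 had a ratio below 0 and not 1 was 2-fold lower, and the median log2 ratio was -0.38, where that of all 1655 measured genes was -0.005 and 50.3% of them were below 0. The lowest were AT4G17390 of the large subunit (1092 and 582.4, ratio -0.91), AT2G34480 (1079 and 605.6, -0.83), AT4G25740 of the small subunit (297.5 and 168.4, -0.82) and AT4G02230 (169.0 and 101.2, -0.74). The highest was AT1G26880 (218.6 and 285.9, 0.39), followed by AT2G45710 (0.29) and PGY2 (0.13). At a mean signal over 200, 23 of 25 ribosomal protein genes lay below 0 with a median of -0.36, and 54.2% of the 343 other genes did, with a median of -0.04. The median ranged from -0.38 to -0.26 over the alternative settings. On the nitrate and potassium arrays the same 34 genes had medians of -0.18 and -0.04 relative to the full-nutrient array, and the phosphate signal was below the potassium signal for 33 of 34 and below the nitrate signal for 28 of 34. The full-nutrient array is shared by these 3 comparisons, and the family was listed after values had been seen. Of all 1655 measured genes, the phosphate signal lay below the potassium signal for 816 and below the nitrate signal for 833. Relative to the full-nutrient array, the medians of all measured genes on the nitrate and potassium arrays were both 0.00.

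Photosynthesis genes were slightly lower on the deposited scale, and this depended on the scaling. With probe sets averaged by gene, each of the 8 measured genes of the list had a ratio below 0, the median being -0.30. Of all 1655 measured genes, 50.3% lay below 0 and 1.45% were 2-fold lower. The Rubisco accumulation factor gene AT3G04550 was the only one of the 8 at 2-fold. The other 7 lay between -0.36 for RCA and -0.12 for PSAE-1 as the mean of its 3 probe sets. The highest of these probe sets was above 0 (3216 and 3372, ratio 0.07). Quantile normalization moved the list median to -0.08 and loess centring to -0.14, and with quantile normalization PSBY (0.12) and both PSBW probe sets (0.03 and 0.05) lay above 0. Several of these transcripts are bright, and above a signal of 1000 the median of all probe sets was -0.11. The potassium array was lower still, with 3740 for RCA and 4220 for LHCB4.1, and the list median was -0.01 against the mean of the other 3 arrays.

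Sulphate genes, read because the phosphate-free solution held more sulphate, lay close to the full-nutrient level. APS3 and APS4, which encode enzymes that activate sulphate, had signals of 448.8 and 463.4 and of 76.2 and 66.2 on the full-nutrient and phosphate arrays, and SIR, the sulphite reductase gene, 435.7 and 482.2. The largest ratio of the 3 in size was -0.20. Of 12 genes of flavonoid and anthocyanin synthesis, DFR and BAN were named and lay below the floor on both arrays. In starch metabolism, SBE2.2, a branching enzyme gene, had a ratio of 0.15 and APL3, a subunit of the enzyme that starts starch synthesis, was at least 1.62-fold higher (22.5 and 40.6). No gene of the nitrate or potassium lists, of 9 members each, was named.

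Some other groups found by gene name were mixed and others were not. The 2 measured genes of phosphatase names both lay below 0, with a median of -0.45. The 5 found by search terms for lipids all lay above 0, with a median of 0.21. They include AVA-P1 and AVA-P2 (0.21 and 0.29), genes of a vacuolar proton pump that were matched by words in their names. The median is the value of AVA-P1, so it does not describe lipid metabolism. In both groups 0 genes were at 2-fold. With 50.3% of all 1655 measured genes below 0, directions in groups of 2 and 5 genes are not read as results. Among 16 measured genes of ubiquitin, F-box and protease names, 8 lay above and 8 below 0, and PIP was the single one at 2-fold. The search terms as first written gave 23 genes, with 11 above and 12 below. The 14 measured cell wall genes had a median of 0.20 with TBL37 at 2-fold, and the 10 glycosyltransferase genes a median of 0.15 with 0 at 2-fold. Beside the 2.6% higher and 1.45% lower of all measured genes, counts of 0 or 1 in groups of this size are not read as results about them.

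**Figure D5:**
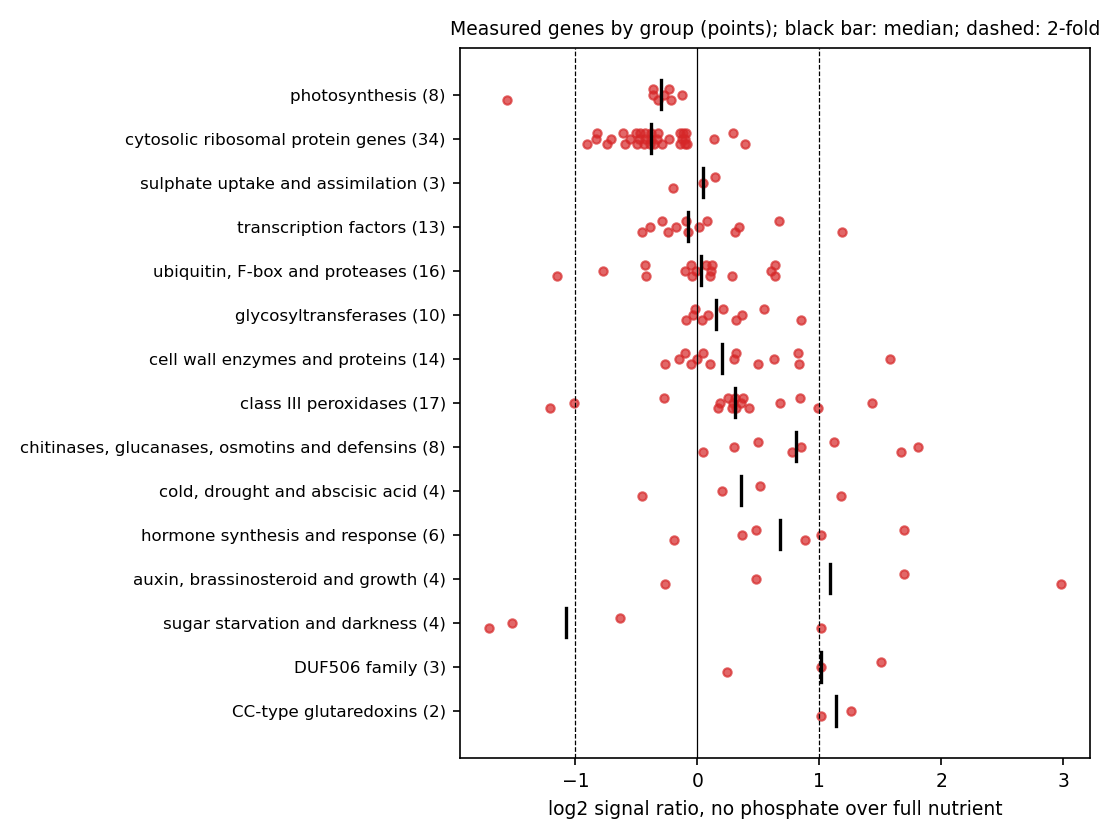
Log2 ratio of the phosphate to the full-nutrient array for the measured genes of 15 groups (number of genes in parentheses), as the mean of each gene's probe sets; black bars are medians and dashed lines mark 2-fold. Ratios with a signal at the floor are bounds; 31 of 34 ribosomal protein genes lie left of 0 and all 8 genes under chitinase and related names right of it, where the search terms as first written put 11 of 15; the terms of that group, of transcription factors and of ubiquitin and proteases were revised after values were seen.

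The highest ratios measured above the floor on both arrays belonged to probe sets without a gene name here. The highest of them had signals of 66.6, 174.0, 738.6 and 2048, 11.1-fold higher on the phosphate array. The next had 46.3, 32.4, 345.7 and 174.2, 7.47-fold higher, and another 68.3, 31.3, 383.1 and 206.1, 5.61-fold higher. The latter 2 were highest on the phosphate array. The lowest unnamed probe set had 149.0, 92.8, 36.8 and 156.4, 4.05-fold lower on the phosphate array. In all, 102 of the 153 higher and 34 of the 59 lower probe sets had no gene name, so the larger part of the phosphate difference was not read by gene.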

How the data were processed

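Linear intensity values of 8297 probe sets on 4 arrays were deposited by the authors in 1 table. How scans became values is not given in the sources used here. With the top and bottom 2% removed, each array averaged between 100.1 and 100.2, so the deposited intensity values share a scale. Per the labels, the full-nutrient and phosphate arrays had backgrounds of 49.06 and 51.51 and 312 and 0 masked cells.

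The 50 control probe sets were left out, signals under 25 were set to 25, and log2 ratios were taken with Python 3.11.15, numpy 2.4.6 and pandas 2.3.3. The code was tested on simulated data. A higher or lower call is a ratio of 2-fold; there is no test, since each condition has 1 array, and the number of arrays limits the precision.

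The platform annotation named 1 gene for 3794 probe sets, several for 70 and none for 4383. Identifiers of 3784 matched the gene table of TAIR10.1, giving 3592 genes, of which 1655 had a probe set above 25 on either array and were measured. Probe sets of a gene were averaged. The table names no genome build, so positions are left out. The table holds no gene descriptions, so families of genes known by locus tag come from background knowledge, and 16 keyword groups were matched on symbols and synonyms. Their search terms were revised in 2 rounds after the results had been seen: clone names and partial words were dropped, which changed the transcription factor and ubiquitin groups, and then the chitinase and defensin group lost methionine genes and gained the LCR family. Values from the terms as first written are given beside the revised ones. Probe sets with the endings _s_at, _i_at and _f_at, among them those of OSM34, CML41 and AT5G64120, may bind related transcripts. Promoter motifs were planned but not analysed here.

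The naming rule takes the 20 highest and 20 lowest with both signals above 25, the 10 and 5 largest bounds and genes with 2 probe sets at 2-fold. It also takes members of 17 lists, and in keyword groups those at 2-fold and the extremes. Any other gene is said to be named after its values were seen. Some genes that met the rule are not described above, among them LHCB4.3 and the keyword extremes UGT73B1, CYP71B6, F2KP, WRKY47 and TMT1. The members and lists were chosen with earlier results of these data known, and 5 families (glutaredoxins, DUF506, peroxidases, jasmonate oxidases, ribosomal proteins) were added after the values were seen.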

Additional observations from a re-analysis of the deposited data

How the results depend on the processing

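The counts depended on the treatment of low signals and on the reference. In place of 153 higher and 59 lower probe sets there were 261 and 103 with a floor of 10. With the mean of the other 3 arrays as the reference there were 75 and 37. A floor of 50 gave 107 and 38, and log2(signal + 16) gave 152 and 37. Probe sets with the plain ending, a smaller set, gave 105 and 37. Quantile normalization gave 146 and 63, loess centring 161 and 57, and median centring 164 and 57. The ratio to the mean of the other 3 arrays turned below 0 for AT1G03220 (-0.022), AT2G38380 (-0.132) and OSM34 (-0.155); no other called gene changed direction under the 7 alternatives. Of 48 higher and 25 lower named probe sets, 12 and 6 kept their 2-fold call under all 7, among them EXO, BGLU15, AT4G36850, AT4G17790, AT4G32480, GH3.3 and LCR68, and AT1G76960, AT4G27450 and AT2G05540. Of the 112 alternative medians of 14 gene groups, 101 moved by no more than 0.252, the median spread between probe sets of a gene on the log2 scale. Revising the search terms with values in view moved the chitinase and defensin median from 0.28 over 15 genes to 0.81 over 8. The photosynthesis median of -0.298 was -0.08 with quantile normalization, -0.143 with loess centring and -0.013 against the other 3 arrays. The peroxidase median was 0.839 with a floor of 10 and 0.026 against the other 3 arrays. No paired analysis was possible because each condition has 1 array. Signals near the floor limit what low ratios can show.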
